A study of Homo sapiens with 12 samples.

Results

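The comparison sets U937 cells after 24 h of JS-K against U937 cells after 90 min of it. It contrasts the late response with the early one, and it includes the genes that moved one way from vehicle at 90 min and the other way at 24 h. The samples were chosen by their labelled exposure: 3 arrays at 24 h and 3 at 90 min, 6 of the 12 arrays of the series. The others were 3 arrays of cells given the DMSO vehicle, which give the starting level, and 3 at 4 h of JS-K, which were used for the spread and the course in time. All groups are the same unmodified line, labelled as biological replicates, so each p-value reflects only how far these samples spread. The labels give neither a dose of JS-K nor the time that vehicle cells were exposed, and there is 1 vehicle group for all times, so time in culture and time with JS-K cannot be told apart.

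U937 is a human leukemia line of the monocyte lineage whose proliferating cells can be driven by several agents to stop dividing and take on monocyte and macrophage genes. JS-K is an arylated diazeniumdiolate that reacts with glutathione, helped by glutathione transferases, and in doing so releases nitric oxide and uses up glutathione. A cell so treated is known to induce immediate early genes within the first hours, whose products then alter later gene sets. Stress of the endoplasmic reticulum, where secreted proteins fold, raises chaperone genes through a sequence element in their promoters, and genes of the cell cycle are read in waves set by E2F factors before DNA replication and by a complex on CHR elements before mitosis.

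Values are deposited log2 levels, each gene read from 1 probe set, and a difference is 24 h minus 90 min on that scale with its standard error (SE) from limma. Genes with an adjusted p under 0.05 count as called, and "rose" and "fell" are used only of called genes. A level under 4 is low signal, so a difference with 1 end there can understate the change. Values for single arrays are given in the order of replicates 1, 2 and 3. Correlations over all probe sets, which are not independent replicates, were 0.9975 to 0.9983 among the 90 min arrays, 0.9971 to 0.9974 among the 24 h arrays and 0.9777 to 0.9792 between the groups. Among the identity markers LYZ, ITGB2, ANPEP and CD4 were present, while MPO and CD48 lay under 4 in every group. Defining markers of T cells (6 of 6), erythroid cells (4 of 4), platelets (5 of 5) and epithelium (5 of 5) lay under 4 in both groups; of these PPBP of platelets was called higher, by 0.17. The exceptions in other lists were PAX5 of B cells, NKG7, which myeloid cells also express, COL1A1 and ERG. Of these PAX5 fell by 1.32 ± 0.29 and NKG7 by 0.25 ± 0.08, the latter a call that ended without 24 h replicate 2 (adjusted p = 0.0711), 24 h replicate 3 (0.106), 90 min replicate 1 (0.0931) or 90 min replicate 3 (0.0639).

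Control probe sets also separated the 2 groups. The poly-A spikes, bacterial transcripts added before labelling, averaged 3.08 ± 0.06 (SD, n = 3) at 90 min and 8.47 ± 0.05 at 24 h. Hybridization spikes averaged 10.03 ± 0.18 and 11.70 ± 0.04, and probe sets for 28S ribosomal RNA averaged 8.72 ± 0.17 and 11.19 ± 0.24. Those for 18S ribosomal RNA averaged 7.06 ± 0.91 and 10.5 ± 0.96, against 9.78 ± 1.69 in vehicle. The 3′ minus 5′ difference of ACTB was 0.83 ± 0.02 at 90 min and 0.96 ± 0.04 at 24 h. Vehicle arrays stood with the 90 min arrays in both kinds of spike. At 4 h the poly-A spikes averaged 7.02 ± 0.15 and the hybridization spikes 10.21 ± 0.30. Spike level and exposure time therefore cannot be told apart between 90 min and 24 h. The shift in poly-A spikes also lies between 90 min and 4 h and between vehicle and 24 h. It thus enters the shares of a change reached by 4 h and the late side of each switch. The part of these differences in the results was not tested.

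**Figure D1:**
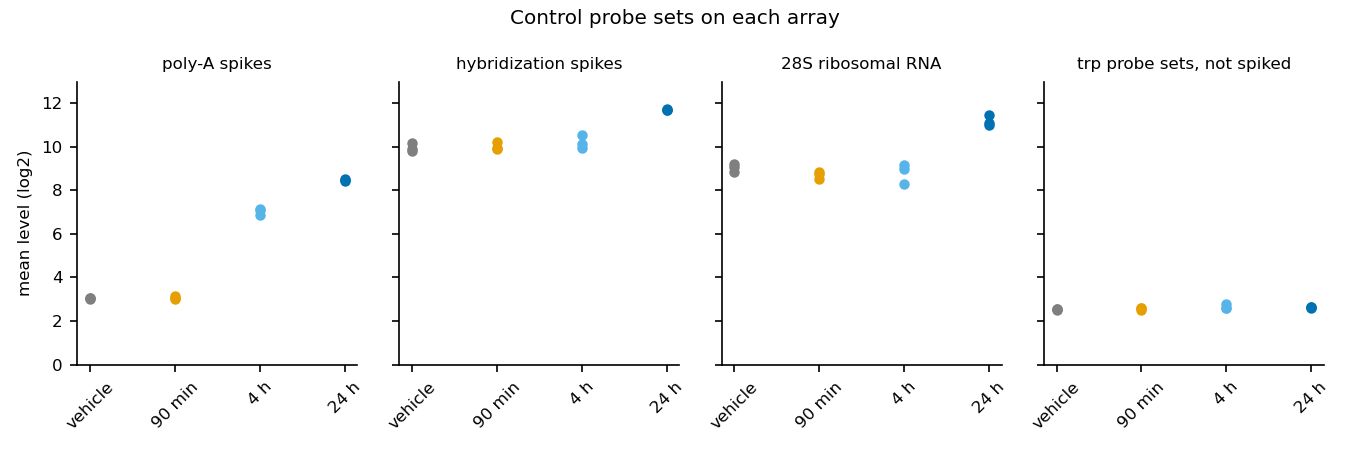
Mean log2 level of 4 kinds of control probe sets on each of the 12 arrays, by group; each point is 1 array. The poly-A spikes lie near 3 in vehicle and at 90 min, near 7 at 4 h and near 8.5 at 24 h. Probe sets for trp, a transcript that was not spiked in, average 2.53 to 2.66 in the 4 groups.

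Between 90 min and 24 h U937 cells showed lower levels of genes for making ribosomes, nucleotides, DNA and mitochondrial proteins, and higher levels of genes for mitosis, monocyte receptors and lysosomes. Of 29 measured genes of ribosome biogenesis and MYC, 28 fell and none rose, with a median difference of −2.07. Of 38 genes of DNA replication and the G1/S step, 33 fell and none rose (median −1.20), while 32 of 39 G2 and mitosis genes rose and 2 fell (median 0.84). Of 33 receptors of monocytes and macrophages 21 rose and 2 fell (median 1.19). Over all 19775 genes tested, 2889 (14.6%) rose and 3107 (15.7%) fell, 30.3% in all, and the median difference was 0.04. Of these, 795 rose at least 2-fold (4.02%) and 1108 fell at least 2-fold (5.6%). For 15618 genes (79%) the 3 late and 3 early arrays were apart, so that a lack of overlap says little here about a single gene.

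How many genes passed depended on level and scaling. Of genes with a mean under 4, 4.71% were called, against 69.9% of those over 10. Of the 1677 genes with a mean of 4 to 6, 320 rose and 284 fell, and of the 2715 of 6 to 8, 697 rose and 771 fell. Of the 3148 genes with a mean of 8 to 10, 909 rose and 1128 fell, and of the 2011 over 10, 567 rose and 838 fell. Counts in the lists are to be read beside those of genes at a like level. With each array's median subtracted, 38.1% of the calls were rises, against 48.2% as deposited and 51.8% after quantile normalization. Without 4 h replicate 2, which stands apart within its own group and enters only through the shared spread, 8062 genes rose and 3568 fell. With that array left out and only genes with a mean of at least 4, the counts were 2981 and 3539.

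**Figure D2:**
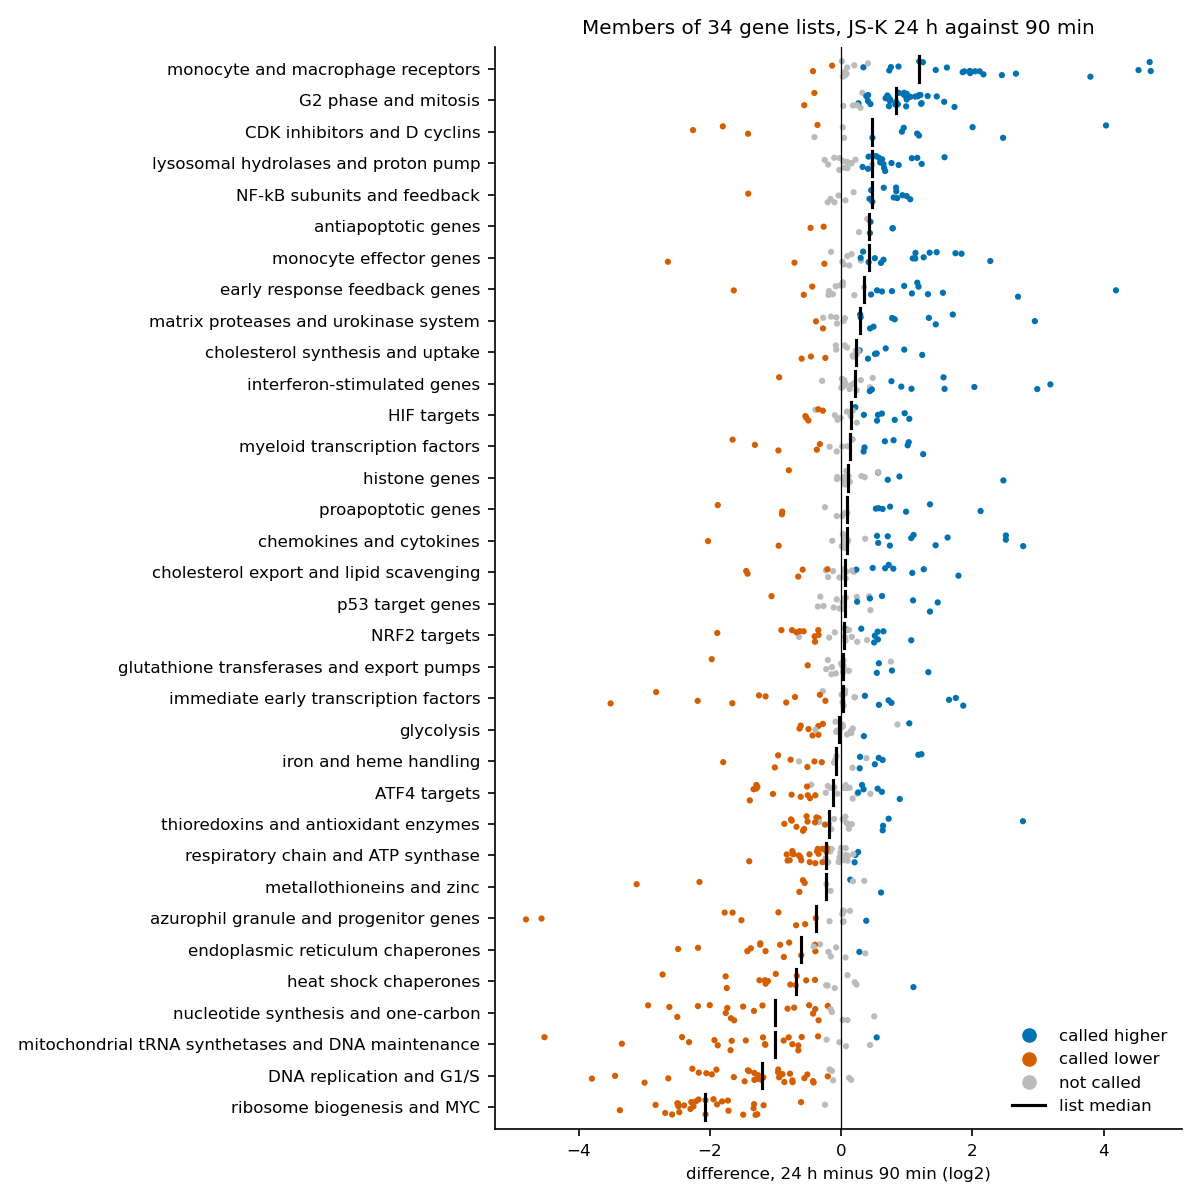
Difference between 24 h and 90 min (log2) for every measured member of 34 gene lists; each point is a gene, coloured by its call, and black bars are list medians. Lists run from ribosome biogenesis and MYC (median −2.07) to monocyte and macrophage receptors (1.19).

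Among single genes the largest rise was that of EMP1, which encodes an epithelial membrane protein. Its 90 min arrays read 5.37, 5.50 and 5.92 and its 24 h arrays 11.42, 11.41 and 11.34, a difference of 5.79 ± 0.24 (adjusted p = 4.06e-09). The 3 late arrays lie close together and far above the early ones, and at 4 h the mean was 7.47, so the rise was under way before 24 h. TDO2, a dioxygenase that opens the ring of tryptophan, read 2.36, 2.29 and 2.26 at 90 min and 7.79, 7.71 and 7.85 at 24 h (5.48 ± 0.08, adjusted p = 2.03e-12). It was at low signal in vehicle, at 90 min and at 4 h (means of 2.23, 2.30 and 2.43), and rose only between the last pair of times measured. The costimulatory ligand CD86 had the same course, with 2.13, 2.14 and 2.11 at 90 min, a mean of 2.16 at 4 h, and 6.92, 6.43 and 7.18 at 24 h (4.72 ± 0.14). Several of the other largest rises are genes of innate immune recognition. GPR34, a lysophospholipid receptor of myeloid cells, rose by 5.13 ± 0.21, FPR1, the receptor for bacterial formyl peptides, by 4.70 ± 0.33, and LY96, the partner of TLR4 in sensing endotoxin, by 4.68 ± 0.16. C5AR1, the receptor for complement fragment C5a, rose by 4.53 ± 0.15 and HAVCR2, an inhibitory receptor, by 4.44 ± 0.24. MAML2, a coactivator of Notch signalling, rose by 4.49 ± 0.21. The last of the 10, RNA45SN5, is a precursor of ribosomal RNA and rose by 4.49 ± 0.26 on the arrays where the 28S and 18S control probe sets were higher as well; the part of that control difference was not tested.

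The largest fall was that of MS4A3, a membrane protein gene of granulocyte and monocyte progenitors. Its 90 min arrays read 10.82, 10.82 and 10.91 and its 24 h arrays 6.06, 5.89 and 6.18 (−4.80 ± 0.09, adjusted p = 1.36e-11), and at 4 h the mean was still 10.76. PLAC8, another gene of immature myeloid cells, read 9.31, 9.23 and 9.31 at 90 min and 5.04, 5.49 and 3.62 at 24 h (−4.57 ± 0.35). The late arrays of PLAC8 spread over more than 1 log2 unit, with replicate 3 lowest, but none comes near the early arrays. MARS2, the mitochondrial methionyl-tRNA synthetase, fell by 4.52 ± 0.21 and had reached 4.80 by 4 h. The other large falls include genes that modify or move RNA and proteins: PUS7, a pseudouridine synthase (−4.47 ± 0.17), QTRT1, which puts queuine into tRNA (−3.81 ± 0.21), and IPO4, a nuclear importin (−4.12 ± 0.13). SLC29A1, the nucleoside transporter ENT1, fell by 3.99 ± 0.16, MCM10, a replication initiation factor, by 3.80 ± 0.31, FERMT1, an integrin activator, by 4.09 ± 0.24, and P2RY2, a receptor for extracellular ATP, by 3.78 ± 0.61.

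**Figure D3:**
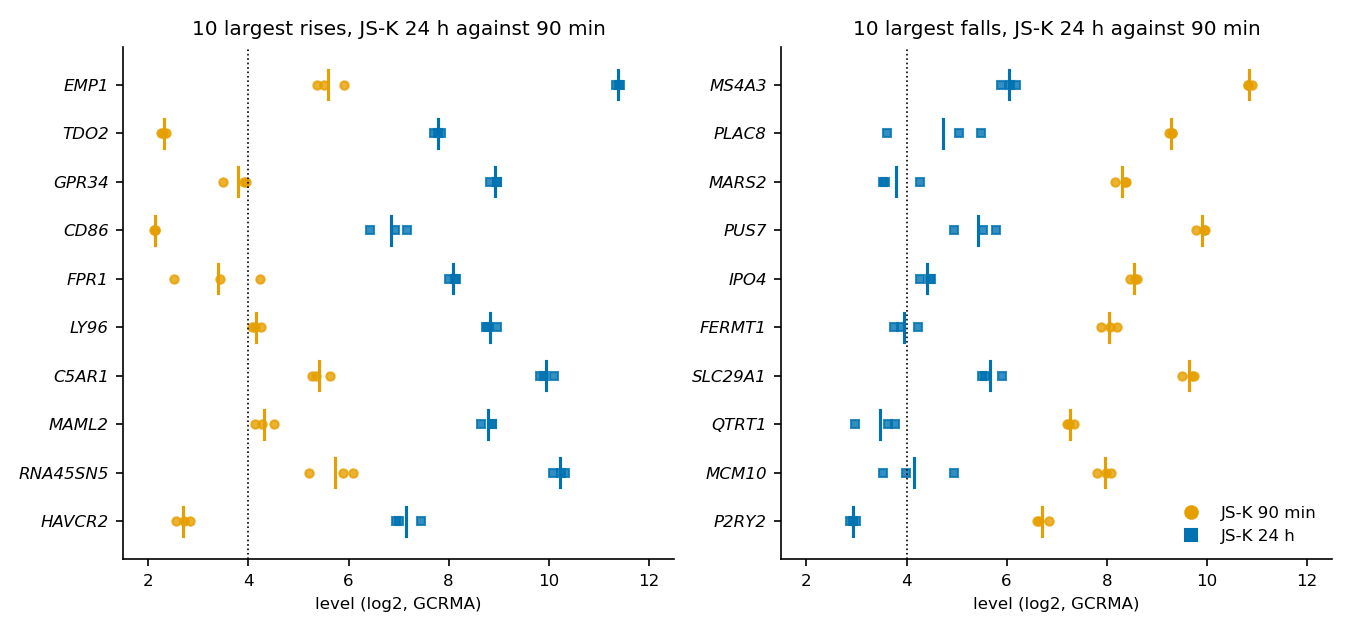
Log2 levels of the 10 largest rises (left) and 10 largest falls (right) on the 3 arrays at 90 min (circles) and the 3 at 24 h (squares), with vertical bars at group means and a dotted line at 4, under which signal is low. The group means of TDO2, CD86, HAVCR2, GPR34 and FPR1 lie below the line at 90 min, and those of QTRT1, MARS2, P2RY2 and FERMT1 lie below it at 24 h.

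On the assembly GRCh38.p14, EMP1 lies on chromosome 12 (13196726 to 13219941), CD86 on chromosome 3 (122055362 to 122121136) and MS4A3 on chromosome 11 (60056665 to 60071115). EGR1 lies on chromosome 5 (138465479 to 138469303), TXNIP on chromosome 1 (145992435 to 145996579) and CYBB on chromosome X (37780059 to 37813461).

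Genes of growth were the group with the most uniform fall. MYC, the transcription factor that drives ribosome production and proliferation, read 11.06, 10.98 and 10.99 at 90 min and 8.25, 8.16 and 8.14 at 24 h (−2.83 ± 0.08, adjusted p = 3.2e-10), on top of an earlier fall from 12.49 in vehicle. Of its change after 90 min 46.1% was reached by 4 h. Of the 29 genes of the list, MYC included, 2 were called lower than vehicle at 90 min and 1 higher, and 28 were called lower at 24 h. The list median stood 0.04 to 0.10 above the vehicle mean on the 90 min arrays, 0.74 to 1.37 below it on the 4 h arrays and 1.93 to 2.13 below it at 24 h. UTP20, a factor that processes the small subunit RNA, fell by 3.37 ± 0.23 to 3.54 and is therefore at low signal at 24 h. POLR1C and POLR1B, subunits of RNA polymerase I, fell by 2.68 ± 0.16 and 2.58 ± 0.09, the latter from 10.11, 10.04 and 9.96 to 7.57, 7.47 and 7.34. The exception among the 29, named after its values were seen, was RRN3, an initiation factor of the same polymerase, at −0.25.

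Nucleotide synthesis and one-carbon genes fell in 19 of 24, with no rise and a median of −1.01; without 4 h replicate 2 there were 2 rises and without 24 h replicate 3 there was 1. PPAT, which catalyses the committed step of purine synthesis, read 9.24, 9.36 and 9.40 at 90 min and 6.44, 6.49 and 6.25 at 24 h (−2.94 ± 0.13), with no overlap between the times. PFAS of the same pathway fell by 2.62 ± 0.11, DHODH of pyrimidine synthesis by 2.50 ± 0.21 to low signal, and CTPS1, which makes CTP, by 2.18 ± 0.16. Of 24 mitochondrial tRNA synthetases and genes of mitochondrial DNA maintenance 19 fell and 1 rose (median −1.02). Besides MARS2, the mitochondrial DNA helicase TWNK fell by 3.34 ± 0.38 and the synthetases SARS2 and EARS2 by 2.43 ± 0.24 and 2.32 ± 0.21. The rise was that of the exonuclease MGME1 (0.54 ± 0.06), named after its value was seen, and without 4 h replicate 2 the rises numbered 2. Nuclear genes of the respiratory chain, at a median level of 11.95 at 90 min, moved less. Of these, 21 of 40 were lower and 3 higher, with a median of −0.22, while of all 2011 genes with a mean over 10, 838 fell and 567 rose. The largest fall among them was that of ATP5MC1, a subunit of the ATP synthase ring (−1.40 ± 0.11), and CYC1, NDUFA8 and NDUFA10 fell by 0.79 to 0.83. Tested against a fold of 1.5, 1 of those 21 kept its call, and with array medians subtracted or without 24 h replicate 1 there were no rises. Without 24 h replicate 2 or 90 min replicate 3 there was 1.

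The cell cycle genes parted by phase. Those of DNA replication fell: CDC6, which loads the replicative helicase, read 8.13, 8.16 and 8.34 at 90 min and 4.80, 4.77 and 4.73 at 24 h (−3.45 ± 0.14, adjusted p = 3.56e-09). CCNE1, the cyclin of the G1/S step, fell by 3.00 ± 0.35, GINS2 of the helicase complex by 2.63 ± 0.09, and MCM2, a subunit of the helicase itself, by 2.05 ± 0.09. The 5 that did not pass, named after their values were seen, were PCNA (−0.18), TK1 (0.15), TYMS (−0.14), LIG1 (−0.12) and ORC6 (0.12). Of the 39 genes of G2 and mitosis 21 were called higher than vehicle at 90 min and none lower, and 32 rose between 90 min and 24 h. HMMR, a spindle protein that binds hyaluronan, read 10.63, 10.71 and 10.77 at 90 min and 12.35, 12.51 and 12.43 at 24 h (1.73 ± 0.09), and was not called at 90 min against vehicle. The mitotic kinases PLK1 and AURKA rose by 1.57 ± 0.10 and 1.32 ± 0.05, the kinetochore motor CENPE by 1.46 ± 0.09 and the mitotic cyclin CCNB1 by 0.72 ± 0.05. The 2 falls, named after their values were seen, were BUB3 of the spindle checkpoint (−0.56 ± 0.08) and CDK1, the partner kinase of CCNB1 (−0.41 ± 0.06), which read 11.69, 11.79 and 11.80 at 90 min and 11.26, 11.44 and 11.35 at 24 h. In bulk samples a smaller share of cells in a phase and less RNA per cell cannot be told apart.

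In the list of kinase inhibitors, D cyclins, their kinases, pocket proteins and GADD45 genes 8 of 15 rose and 4 fell. CDKN1A, which encodes p21, read 6.59, 6.67 and 6.87 at 90 min and 10.85, 10.60 and 10.80 at 24 h (4.04 ± 0.13, adjusted p = 5.33e-10), from 5.21 in vehicle. Its arrays rose at each time sampled, with a mean of 8.63 at 4 h. CDKN2D and CDKN1C rose by 2.47 ± 0.15 and 2.00 ± 0.38, whereas CCND2, a D-type cyclin, fell by 2.26 ± 0.13. The rise of CDKN1C started from low signal (3.09, 2.94 and 3.81 at 90 min), and its 24 h arrays scattered (5.67, 5.92 and 4.26). CDKN1B, which encodes the inhibitor p27 and was named after its value was seen, fell by 0.36 ± 0.08. Of 20 other genes known as targets of p53, 6 rose and 1 fell (median 0.06), and without 4 h replicate 2 the rises numbered 10. Activity of p53 in these cells was not tested. RRM2B, a ribonucleotide reductase subunit, rose by 1.47 ± 0.07, PMAIP1 by 1.35 ± 0.13 and DDB2, a DNA damage sensor, by 1.09 ± 0.17, while the exonuclease AEN fell by 1.06 ± 0.17. Without 24 h replicate 2 or 90 min replicate 3 the falls numbered 2.

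Promoters of both waves were searched for known letters over the 250 bases before each start site, as given by RefSeq (GRCh38.p14), on both strands. The E2F motif TTTNGCGC was in 10 of 34 promoters of the replication list (29.4%) and in 304 of all 15382 promoters (1.98%). The CHR motif TTTGAA was in 15 of 32 promoters of the mitosis list (46.9%), 1 of 34 of the replication list and 10.6% of all. CCAAT boxes were in 22 of those 32 mitosis promoters (68.8%), 19 of 34 of the replication list (55.9%) and 34.1% of all. In the other lists searched they ran from 1 of 16 promoters (NF-kB subunits and feedback) to 18 of 20 (endoplasmic reticulum chaperones). The promoters below are, in each list, that of the member with the largest difference among those that hold the motif, chosen after the values were seen. CDC25A, a phosphatase that activates cyclin-dependent kinases, fell by 1.97 ± 0.19, and HMMR is the gene with the largest rise of its list. Capitals mark the E2F motif in CDC25A (chr3:48188418-48188667, minus strand) and CCAAT boxes and CHR motifs, on either strand, in HMMR (chr5:163460382-163460631, plus strand).
CDC25A: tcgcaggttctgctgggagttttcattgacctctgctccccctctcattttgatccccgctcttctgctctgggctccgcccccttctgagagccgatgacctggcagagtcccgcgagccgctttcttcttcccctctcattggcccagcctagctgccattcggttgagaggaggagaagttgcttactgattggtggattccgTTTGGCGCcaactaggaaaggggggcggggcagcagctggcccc
HMMR: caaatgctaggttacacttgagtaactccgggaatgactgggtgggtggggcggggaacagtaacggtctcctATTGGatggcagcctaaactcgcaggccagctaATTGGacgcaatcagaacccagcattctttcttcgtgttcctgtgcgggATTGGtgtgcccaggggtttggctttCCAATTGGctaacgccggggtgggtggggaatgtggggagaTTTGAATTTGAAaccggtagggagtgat
The E2F motif of CDC25A lies 44 to 37 bases before the start site, and HMMR holds 2 CHR motifs within its last 28 bases. These matches describe letters and show no binding. Over all called or switching genes the shares lay closer to those of all promoters: CHR was in 10.7% of promoters of genes that rose and 7.33% of those that fell, and E2F in 1.83% and 3.17%. The CRE motif TGACGTCA was in 3.36% and 3.28% (2.38% of all), the AP-1 motif TGANTCA in 4.55% and 2.98% (5.03%), and the NF-kB motif GGGNNNTCC in 22.1% and 22.8% (21%).

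Genes of the monocyte and macrophage surface made up the largest rise of any list by its median. FPR1, which guides phagocytes to formyl peptides, read 4.24, 2.51 and 3.43 at 90 min and 8.14, 8.13 and 8.01 at 24 h, so that its early arrays scatter about the level of 4 and its late ones lie close together. C5AR1 read 5.35, 5.28 and 5.63 at 90 min and 9.91, 10.11 and 9.83 at 24 h. It had risen already at 90 min from 3.09 in vehicle, and 45.6% of its later rise was reached by 4 h, against 0.73% for CD86. TREM1, an amplifier of inflammation, rose by 3.80 ± 0.21. Of the 33 receptors 8 lay under 4 in both groups, among them CD14 and the mannose receptor MRC1, and TLR4 (−0.43) and CCR2 (−0.14) were the 2 that fell. No summed level of a T cell, erythroid, platelet or epithelial marker list exceeded 5.1 on any array. The lists that hold the exceptions named above reached more, with highest values of 6.54 (B cell), 12.3 (NK cell), 6.46 (fibroblast) and 5.82 (endothelial).

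Effector genes of monocytes rose in 15 of 25 and fell in 3 (median 0.42). The anticoagulant receptor THBD rose by 2.27 ± 0.15, S100A10 by 1.83 ± 0.10 and the lectin FCN1 by 1.74 ± 0.15. The subunits of the phagocyte NADPH oxidase parted. CYBB, its catalytic subunit, read 9.34, 9.29 and 9.40 at 90 min and 6.94, 6.75 and 6.42 at 24 h (−2.64 ± 0.24), and CYBA, its membrane partner, gave −0.26. The cytosolic subunits NCF1 and NCF4 rose by 1.13 ± 0.13 and 1.13 ± 0.08; CYBA, NCF1 and NCF4 were named after their values were seen. Lysozyme (LYZ), an abundant monocyte product, was at 14.2 at both times. Of 18 myeloid transcription factors 7 rose and 5 fell. SPI1, the lineage factor PU.1, rose by 1.25 ± 0.19, while MYB, a factor of progenitors, fell by 1.66 ± 0.09. IRF8 fell by 1.32 ± 0.09 and was called lower than vehicle at 90 min already. The 7 rises were 3 with array medians subtracted and 4 without 24 h replicate 2, and the 5 falls were 3 without 24 h replicate 1 or 3 or without 90 min replicate 1 or 3.

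Genes of azurophil granules and progenitors fell in 9 of 17 and rose in 1, MEIS1 (0.38, named after its value was seen). Besides MS4A3 and PLAC8 the protease gene PRTN3 fell by 1.78 ± 0.10, and MPO, the granule peroxidase, lay at 2.38 and 2.42, both low signal. Without 4 h replicate 2 the list had 3 rises. Lysosomal hydrolases and subunits of the proton pump rose in 18 of 31 with no fall (median 0.47). CTSB, the protease cathepsin B, read 11.51, 11.76 and 11.64 at 90 min and 13.30, 13.19 and 13.15 at 24 h (1.57 ± 0.07). ATP6AP1 of the pump rose by 1.08 ± 0.10 after a fall at 90 min. ATP6V1H rose by 1.23 ± 0.07, but another of its probe sets was called lower and the mean of its probe sets gave −0.05. Without 4 h replicate 2 the list had 1 fall, and tested against a fold of 1.5 it had 3 rises. Proteases of the matrix and the urokinase system rose in 10 of 18, led by the collagenase MMP1 (2.95 ± 0.12), urokinase (PLAU, 1.70 ± 0.10) and its receptor (PLAUR, 1.44 ± 0.10), with the inhibitor TIMP2 (1.34 ± 0.09). MMP8 and SERPINB8, named after their values were seen, were called lower (−0.38 and −0.28), calls that ended without any 1 of the 24 h replicates and without 90 min replicate 1 or 3.

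Genes of the first response did not all subside by 24 h. Of 25 immediate early transcription factors 10 fell and 7 rose, with a median of 0.02. FOS, a partner of JUN in the factor AP-1, read 8.53, 8.52 and 8.62 at 90 min and 6.54, 6.26 and 6.31 at 24 h (−2.19 ± 0.34), and EGR3 fell by 2.82 ± 0.22 to low signal. JUN itself stayed near its early level, with 11.41, 11.27 and 11.18 at 90 min and 11.08, 11.03 and 11.03 at 24 h, against 7.90 in vehicle. Its difference of −0.24 ± 0.08 was called at an adjusted p of 0.0468. That call ended without 24 h replicate 1 (0.0784), 2 (0.117) or 3 (0.114), or without 90 min replicate 1 (0.179) or 2 (0.0936). ATF3 and MAFF, bZIP factors of the stress response, rose further, by 1.75 ± 0.20 and 1.86 ± 0.08. Without 24 h replicate 3 the number of falls was 6. Feedback genes of the early response rose in 12 of 25 and fell in 3. IER3, an early gene that counters cell death, read 4.71, 4.10 and 5.08 at 90 min and 8.90, 8.84 and 8.70 at 24 h (4.19 ± 0.22). PHLDA1 and the kinase SGK1 rose by 2.69 ± 0.19 and 1.55 ± 0.09, and the phosphatase DUSP2 fell by 1.64 ± 0.14, while DUSP1 gave −0.13 ± 0.17 (adjusted p = 0.543).

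Chemokines and cytokines did not move as one. CXCL8, which encodes interleukin-8 and draws neutrophils, read 11.06, 10.98 and 11.01 at 90 min and 11.10, 11.15 and 11.12 at 24 h. The late arrays lie just above the early ones by 0.11 ± 0.06 (adjusted p = 0.202), against a rise of 4.62 ± 0.06 from vehicle to 90 min. CXCL2, another neutrophil chemokine, fell by 2.03 ± 0.19. CCL2, which draws monocytes, read 10.21, 10.08 and 10.10 at 90 min and 12.65, 12.69 and 12.57 at 24 h (2.51 ± 0.07), with no overlap. IL1B, a cytokine of the inflammasome, rose by 2.77 ± 0.16 and CCL7 by 2.51 ± 0.29, both from low signal. Of the 27 in the list 11 rose and 2 fell, and 13 lay under 4 in both groups. Without 4 h replicate 2 the rises numbered 17, and among members with a mean of at least 4 they numbered 7.

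NF-kB subunits and their feedback genes rose in 11 of 18 and fell in 1, and with array medians subtracted 7 rose. RELA, the activating subunit, rose by 1.00 ± 0.10, CD83 by 0.93 ± 0.10 and TNFAIP2 by 1.05 ± 0.27, while TNFAIP8 fell by 1.42 ± 0.08. Interferon-stimulated genes rose in 10 of 28 and fell in 1, with 14 under 4 in both groups. OAS1, which makes the activator of RNase L, read 4.27, 4.06 and 3.96 at 90 min and 7.17, 7.38 and 7.30 at 24 h (3.19 ± 0.14), and its mean of 4.21 at 4 h was close to that of vehicle (3.97). IRF9, a subunit of the interferon-activated factor, rose by 2.99 ± 0.26, IFIT3 by 2.03 ± 0.24 and GBP2 by 1.58 ± 0.19. The fall, named after its value was seen, was that of MX2 (−0.95); without 90 min replicate 1 the list had 2 falls.

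Redox genes moved both ways. Of 29 targets of NRF2, the factor of the antioxidant response, 8 rose and 10 fell, with a median of 0.05. Their median level at 90 min was 9.26, and of all 3148 genes with a mean of 8 to 10, 1128 fell and 909 rose. HMOX1, the heme oxygenase of oxidative stress, had its peak between the times compared. It read 5.50, 4.41 and 4.91 at 90 min, 7.66, 7.34 and 7.52 at 4 h and 3.65, 4.71 and 4.52 at 24 h, so the early and late arrays overlap (−0.64 ± 0.30, adjusted p = 0.139). NQO1, a quinone reductase, rose by 0.56 ± 0.09, and the cystine importer SLC7A11 by 0.56 ± 0.09, although its level at 24 h was under that at 4 h (10.58). The enzyme of glutathione synthesis fell in both subunits. GCLC, the catalytic one, read 9.28, 9.22 and 9.27 at 90 min and 7.59, 7.12 and 7.40 at 24 h (−1.89 ± 0.11), and GCLM, the regulatory one, fell by 0.57 ± 0.09. The means of GCLM were 9.44 in vehicle, 10.12 at 90 min, 10.93 at 4 h and 9.55 at 24 h. At 24 h GCLM was not called against vehicle, whereas GCLC was called lower (−1.62). KEAP1, the inhibitor of NRF2, fell by 0.75 ± 0.12 and the carbonyl reductase CBR1 by 0.91 ± 0.15. MAFG had the largest rise of the list (1.07 ± 0.32, adjusted p = 0.0223). It read 6.99, 8.17 and 8.25 at 90 min and 8.91, 8.94 and 8.77 at 24 h.

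Of 27 thioredoxin and antioxidant genes 12 fell and 4 rose (median −0.18). Their median level at 90 min was 10.35, and of all 2011 genes with a mean over 10, 838 fell and 567 rose. Among the peroxiredoxins, which remove peroxides, PRDX4 fell by 0.87 ± 0.06 and PRDX6 by 0.76 ± 0.09. PRDX2 fell by 0.75 ± 0.06 as read from the brightest probe set, with another called the opposite way. The rise of TXNIP, the inhibitor of thioredoxin, stood apart within this list at 2.77 ± 0.08. Tested against a fold of 1.5, 1 of the 12 falls kept its call, and without 4 h replicate 2 the rises numbered 7. Of 21 glutathione transferases and export pumps 4 rose, 2 fell and 9 lay under 4 in both groups. GSTA4, an alpha class transferase, rose by 1.33 ± 0.16 to 7.46, against 7.54 in vehicle, the microsomal MGST3 rose by 0.77 ± 0.07 and the pump gene ABCC4 fell by 1.97 ± 0.14. Without 4 h replicate 2 the rises numbered 8.

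Of 20 genes of iron and heme 7 rose and 7 fell. Their median level at 90 min was 9.01, and of all 3148 genes with a mean of 8 to 10, 1128 fell and 909 rose. CPOX, an enzyme of heme synthesis, rose by 1.22 ± 0.11 and the heme-binding HEBP1 by 1.18 ± 0.09, while STEAP3, an iron reductase of endosomes, fell by 1.80 ± 0.10 and the iron exporter SLC40A1 by 1.01 ± 0.23 to low signal. In the list of metallothioneins and zinc transporters 5 of 11 fell and 2 rose. The importer SLC39A14 read 10.01, 9.94 and 10.10 at 90 min and 6.83, 7.14 and 6.72 at 24 h (−3.12 ± 0.12), and the metallothionein MT1G fell by 2.16 ± 0.18. Without 24 h replicate 3 or any 1 of the 90 min replicates there was 1 rise.

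Of 21 chaperones of the endoplasmic reticulum 11 were called higher than vehicle at 90 min and none lower, and at 24 h 10 were called lower than vehicle and 2 higher. The list median stood 0.33 to 0.44 above the vehicle mean on the 90 min arrays, 0.04 to 0.22 above it at 4 h and 0.16 to 0.37 below it at 24 h. Between 90 min and 24 h 13 members fell, 1 rose and 7 were not called (median −0.61). HSPA5, which encodes the chaperone BiP, read 12.81, 12.90 and 12.82 in vehicle, 13.49, 13.51 and 13.55 at 90 min and 12.04, 12.19 and 12.02 at 24 h (−1.43 ± 0.05, adjusted p = 1.76e-09), and none of the groups overlap. SDF2L1, a partner of BiP, fell by 2.49 ± 0.20, its cochaperone DNAJB9 by 2.18 ± 0.12 and CRELD2 by 1.38 ± 0.10. These 4 and MANF, HSP90B1 and PDIA6 were called higher than vehicle at 90 min and lower than vehicle at 24 h, 7 of 21, against 0.662% of all genes. The rise of EDEM1 (0.28 ± 0.09, named after its value was seen) was no longer called without 24 h replicate 2 or 3 or without any 1 of the 90 min replicates.

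The element of these promoters that answers to stress of the endoplasmic reticulum was sought as CCAAT and CCACG with 9 bases between them, on both strands and in the same 250 bases, a search added after the values were seen. It overlaps the CCAAT box by its first letters. It was in 6 of 20 promoters of the list (HSPA5, HSP90B1, CRELD2, CALR, CANX and XBP1) and in 16 of all 15382 (0.104%). Of the 7 members that switched 3 held it, and of the 13 others with a promoter 3 held it. The promoters of HSPA5 (chr9:125241344-125241593, minus strand) and CRELD2 (chr22:49918384-49918633, plus strand) are shown, with the element in capitals, as the 2 members with the largest falls among those that hold it.
HSPA5: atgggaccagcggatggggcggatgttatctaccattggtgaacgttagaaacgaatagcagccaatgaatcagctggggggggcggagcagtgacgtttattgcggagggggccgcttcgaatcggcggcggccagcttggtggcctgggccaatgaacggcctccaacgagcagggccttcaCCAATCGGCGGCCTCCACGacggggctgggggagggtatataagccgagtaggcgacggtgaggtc
CRELD2: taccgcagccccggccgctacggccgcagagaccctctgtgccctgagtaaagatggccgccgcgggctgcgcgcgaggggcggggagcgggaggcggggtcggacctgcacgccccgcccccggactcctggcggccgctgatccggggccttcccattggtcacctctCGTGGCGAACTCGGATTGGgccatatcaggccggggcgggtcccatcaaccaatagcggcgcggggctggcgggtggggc
The element lies 66 to 48 bases before the start site in HSPA5 and, on the opposite strand, 80 to 62 before it in CRELD2. CALR, which also holds it, gave −0.32 (adjusted p = 0.361), and XBP1 gave −0.16 (adjusted p = 0.0963).

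Cytosolic and mitochondrial heat shock chaperones fell in 13 of 20 and rose in 1 (median −0.69). HSPA4L, an exchange factor for HSP70, fell by 2.72 ± 0.22, FKBP4, a cochaperone of HSP90, by 1.76 ± 0.12, the mitochondrial HSPA9 by 1.74 ± 0.10 and CCT2 of the chaperonin by 1.25 ± 0.08. The rise, named after its value was seen, was that of BAG3, a cochaperone induced by stress (1.10 ± 0.14); after quantile normalization or without 4 h replicate 2 the rises numbered 3. Targets of ATF4, the factor of amino acid stress, fell in 12 of 32 and rose in 6 (median −0.13). Their median level at 90 min was 9.18, and of all 3148 genes with a mean of 8 to 10, 1128 fell and 909 rose. The amino acid transporter SLC7A5 fell by 1.39 ± 0.08, the serine enzyme PSAT1 by 1.34 ± 0.07, and ALDH18A1 and WARS1 by 1.29 ± 0.08 and 1.29 ± 0.18. The 6 rises were 3 with array medians subtracted or without 24 h replicate 2, and 10 without 4 h replicate 2.

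Of 19 genes of cholesterol synthesis and uptake 14 were called lower than vehicle at 90 min and none higher, and 15 were lower and 2 higher than vehicle at 24 h. Their median stood 0.77 to 0.90 below the vehicle mean at 90 min, 0.96 to 1.46 below it at 4 h and 0.73 to 0.76 below it at 24 h. Between 90 min and 24 h 7 members rose, 3 fell and 9 were not called (median 0.22). SREBF2, the transcription factor of the pathway, read 7.06, 6.94 and 6.93 at 90 min and 8.34, 7.98 and 8.32 at 24 h (1.23 ± 0.13), and MSMO1 and EBP of the late steps rose by 0.96 ± 0.06 and 0.68 ± 0.08. HMGCS1, an early enzyme, gave 0.18 ± 0.11 (adjusted p = 0.219), and −0.27 as the mean of its probe sets. Among 24 genes of lipid uptake and export 8 rose and 5 fell. FABP4, a fatty acid carrier of macrophages, rose by 1.79 ± 0.13 and PPARG, the receptor that governs it, by 1.26 ± 0.16. The scavenger receptor CD36 read 10.50, 10.64 and 10.79 at 90 min and 9.27, 9.28 and 9.10 at 24 h (−1.43 ± 0.08) and so lost most of its early rise from 8.76. SCARB1 fell by 1.45 ± 0.15, with another probe set called the opposite way.

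Glycolysis genes fell in 7 of 22 by small amounts and rose in 2. Their median level at 90 min was 10.27, and of all 2011 genes with a mean over 10, 838 fell and 567 rose. LDHB, TPI1 and GPI fell by 0.64 ± 0.05, 0.62 ± 0.07 and 0.50 ± 0.08, the glucose transporter SLC2A3 rose by 1.04 ± 0.13, and none of the 7 falls kept its call against a fold of 1.5. Without any 1 of the 90 min replicates, or without 24 h replicate 1 or 2, there was 1 rise. Of 22 targets of the hypoxia factor HIF 8 rose and 5 fell, with SLC2A3, NDRG1 (0.97 ± 0.12) and PFKFB4 (0.82 ± 0.12) highest. The median level of that list at 90 min was 8.89, and of all 3148 genes with a mean of 8 to 10, 1128 fell and 909 rose. Genes that act for and against cell death moved in both lists. Of 8 antiapoptotic genes 4 rose and 2 fell: the caspase inhibitors CFLAR and XIAP rose by 0.79 ± 0.11 and 0.78 ± 0.08, MCL1 by 0.45 ± 0.07, and BCL2 fell by 0.47 ± 0.12. Of 15 proapoptotic genes 7 rose and 3 fell. BMF, a BH3-only protein, read 5.36, 5.41 and 4.86 at 90 min and 7.24, 7.49 and 7.28 at 24 h (2.12 ± 0.20), whereas BCL2L11, another of that class, fell by 1.88 ± 0.11. Histone genes rose in 4 of 18 and fell in 1, with H2AC6 at 2.47 ± 0.17 from low signal, and without 4 h replicate 2 the rises numbered 8. Over all genes tested 14.6% rose and 15.7% fell.

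**Figure D4:**
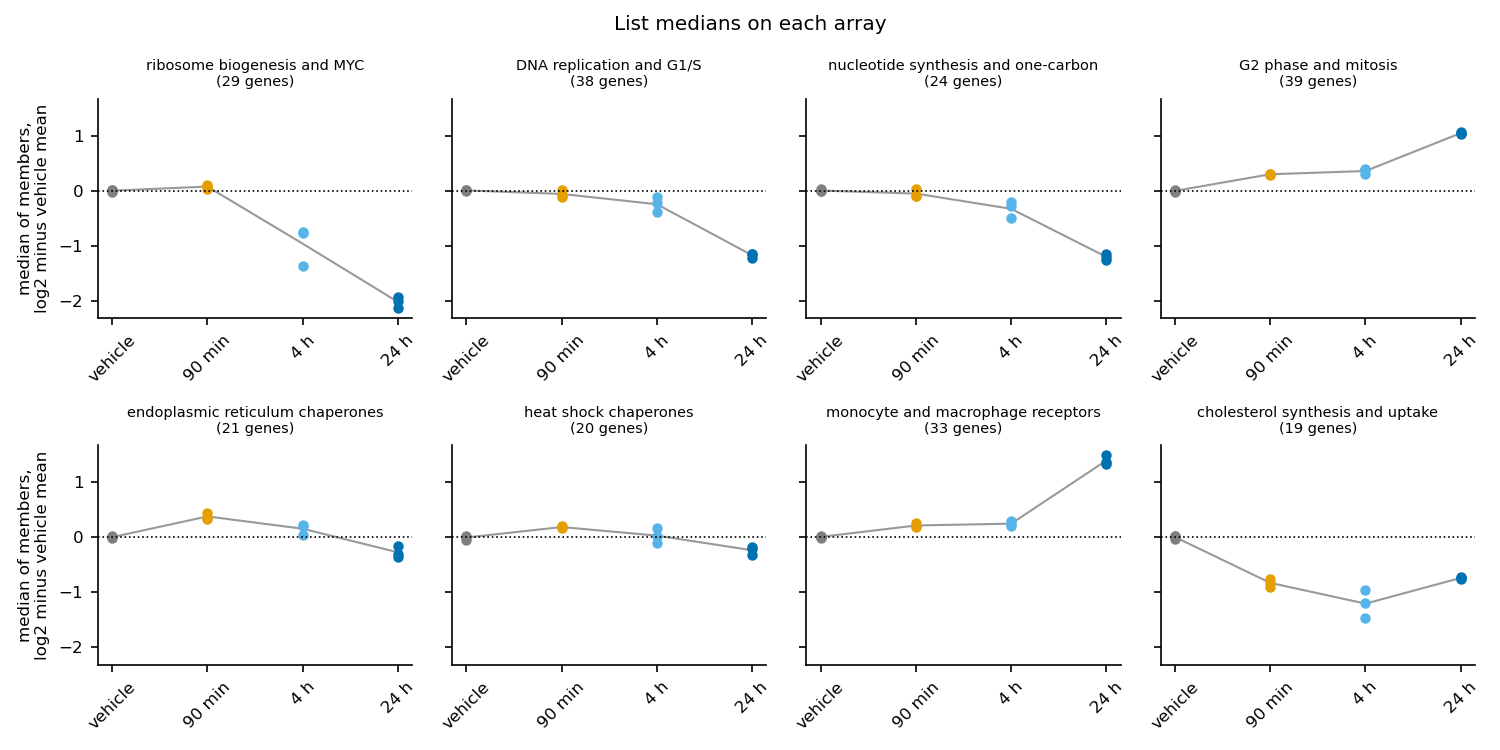
Median of the members of 8 lists on each of the 12 arrays, as log2 minus the mean of the vehicle arrays; each point is 1 array and lines join group means. Mitosis and monocyte receptor medians rise mainly after 4 h, ribosome biogenesis is lower from 4 h on, and endoplasmic reticulum chaperones are above vehicle at 90 min and below it at 24 h.

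A gene was counted as switching up then down when it was called higher than vehicle at 90 min, lower than vehicle at 24 h, and lower at 24 h than at 90 min. There were 131 such genes (0.662%) and 131 (0.662%) that switched down then up. Both sides use the same vehicle arrays, whose errors enter both. Against vehicle, 796 genes (4.03%) were higher and 1111 (5.62%) lower at 90 min, 9.64% in all, and 3518 (17.8%) were higher and 3735 (18.9%) lower at 24 h, 36.7% in all. Most switches were small. The smaller of a gene's 2 differences from vehicle had a median size of 0.38 among those that went up then down and 0.43 among those that went down then up, and it reached 1 for 6 genes in each direction. The counts were 58 and 52 with array medians subtracted, and 1 and 3 when each difference was tested against a fold of 1.5. The up then down count was 75 and 78 without vehicle replicate 2 or 3, and 79 and 83 without 90 min replicate 2 or 3. The other count was 83, 75 and 67 without vehicle replicate 1, 2 or 3, and 67 without 90 min replicate 2. Without 4 h replicate 2 the counts were 222 and 204.

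EGR1, an immediate early zinc finger factor, made the largest switch by that measure. It read 9.63, 8.93 and 8.88 in vehicle, 11.62, 10.49 and 10.58 at 90 min and 7.32, 7.38 and 7.45 at 24 h. All early arrays lie above vehicle (1.75 ± 0.26) and all late ones below it (−1.76 ± 0.26). VMP1, a membrane protein of autophagy, rose by 2.03 ± 0.30 and then stood 1.19 ± 0.30 below vehicle, after a fall of 3.22 ± 0.30 from 90 min. The surface protein genes SIRPB1 (1.37 and −1.34 from vehicle), SLAMF8 (1.12 and −1.23) and CEACAM6 (0.91 and −1.04) were also among the 10, with the late arrays of all 3 under 4. CYBB of the NADPH oxidase gave 1.28 ± 0.24 and −1.36 ± 0.24, from vehicle arrays with a mean of 8.06 and an SD of 0.53. PDE4B, which breaks down cyclic AMP, gave 1.32 and −1.06, and the organic cation carrier SLC22A4 gave 1.23 and −0.91. SDF2L1 (0.95 and −1.54) and LANCL2 (0.97 and −0.93) complete the 10. MS4A3 and IPO4, among the largest falls, switched as well, with small early rises of 0.38 and 0.64.

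TXNIP, which binds and inhibits thioredoxin and restrains glucose uptake, switched the other way. It read 9.15, 8.92 and 8.97 in vehicle, 7.77, 7.83 and 7.88 at 90 min and 10.62, 10.61 and 10.56 at 24 h, with no overlap between groups. At 4 h its arrays (8.07, 8.02 and 7.91) were still low, so 6.23% of the later rise was reached by then. P2RX7, an ion channel opened by extracellular ATP, read 6.53, 6.24 and 6.41 in vehicle, 5.65, 5.04 and 5.55 at 90 min and 9.42, 9.40 and 9.16 at 24 h. It differed from TXNIP in that 54.6% of its rise was reached by 4 h. CD109, a surface coreceptor that restrains TGF-beta signalling, had the largest switch by the measure used (−1.25 ± 0.25 and 2.75 ± 0.25), through low signal at 90 min. SMIM14 gave −1.16 and 1.79, APOLD1 −1.14 and 1.18, the steroid reductase SRD5A1 −1.10 and 2.14, and the zinc finger gene ZC3H6 −1.45 and 1.07. The transcription factor OLIG1 stood 1.20 above vehicle at 24 h after a fall at 90 min, and the diacylglycerol kinase DGKA gave −0.88 and 0.98. RNA45SN5 gave −0.93 ± 0.26 and 3.55 ± 0.26, on arrays whose 28S control probe sets averaged 8.72 and 11.19 against 9.04 in vehicle, and whose 18S probe sets averaged 7.06 and 10.5 against 9.78.

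**Figure D5:**
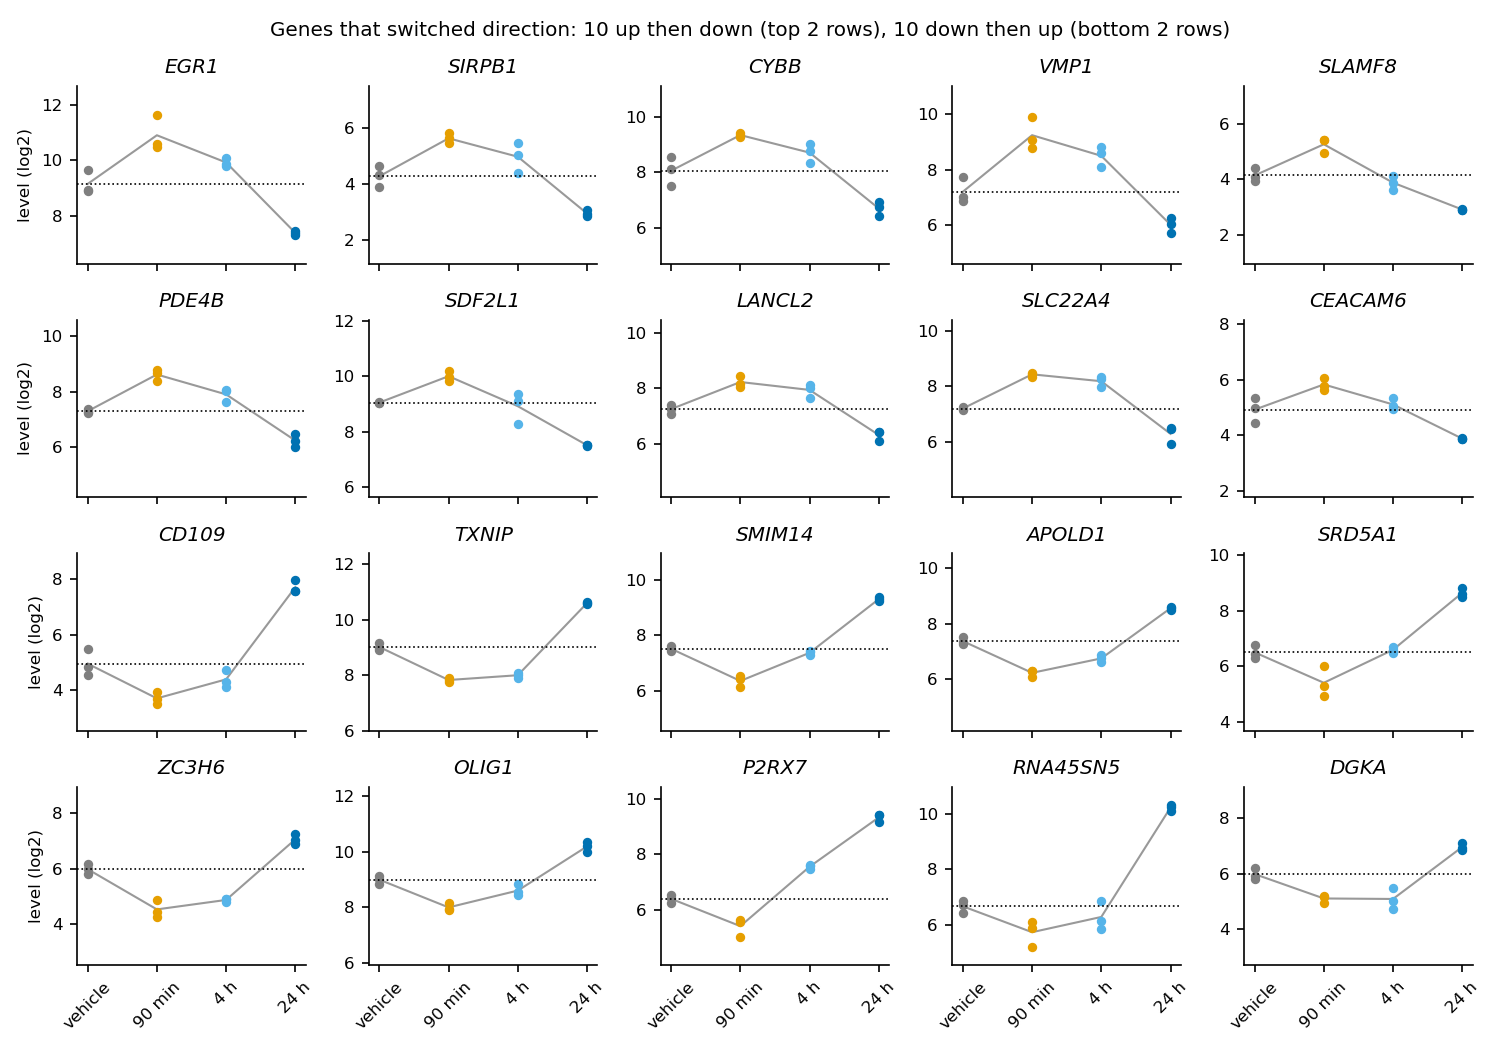
Log2 levels of 20 switching genes on each array, by group, with lines through group means and a dotted line at the vehicle mean; all panels span the same number of log2 units. EGR1 lies above vehicle at 90 min and below it at 24 h, and TXNIP the reverse.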

How the data were processed

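RNA of 12 U937 samples was read on expression arrays. The deposited table holds log2 values, which the authors made with GCRMA in Affymetrix Expression Console, per the submitters' processing notes; versions are not given in the sources used here. These values were used as deposited. How the labelling was combined with this array design is not given in the sources used here, and the number of arrays limits the precision.

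Of 54675 probe sets 41097 had 1 gene symbol, 1801 several and 11777 none; 41043 matched a RefSeq gene of GRCh38.p14. The probe set with the highest mean stood for each of 19775 genes. All 12 arrays entered 1 fit in limma 3.58.1 (R 4.3.3; lmFit, contrasts.fit, eBayes with trend), and p-values were adjusted over all genes by the Benjamini-Hochberg method. Named genes were the 10 largest rises and falls and the 10 largest switches each way (higher mean at least 4, arrays of both groups apart for rises and falls, no symbols of uncharacterised genes, long non-coding RNAs, olfactory receptors, microRNAs, snoRNAs or snRNAs; ribosomal RNA was not barred), up to 4 called members per list, and 20 fixed genes, of which 1 is not reported here. The members, the 43 lists and the tests were chosen with earlier results of these data known, so they support no pattern by their choice. Lists overlap (MYB, SLC2A3 and others stand in more than 1) and are given by counts and medians with no set test. List medians between −0.1 and 0.1 are read as no direction, since scaling moves all differences by about as much. The fit was tested on simulated data. Replicate numbers were checked and did not pair the samples. Python 3.11.15 and matplotlib 3.10.9 made the figures. Alternatives were other spread models, filters, probe set summaries, scalings and arrays.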

Additional observations from a re-analysis of the deposited data

Results flagged for a closer look

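The named switching genes lie on opposite sides of vehicle at 90 min and 24 h because they were chosen for that, so the values here describe the choice and test nothing. Difference at 24 h minus difference at 90 min, in log2 units, was −3.51 for EGR1, −3.22 for VMP1, −2.71 for SIRPB1, −2.64 for CYBB, −2.49 for SDF2L1, −2.38 for PDE4B, −2.35 for SLAMF8, −2.14 for SLC22A4, −1.95 for CEACAM6 and −1.91 for LANCL2. It was 4.00 for CD109, 3.91 for P2RX7, 3.24 for SRD5A1, 2.94 for SMIM14, 2.77 for TXNIP, 2.52 for ZC3H6, 2.33 for APOLD1, 2.20 for OLIG1 and 1.85 for DGKA. RNA45SN5, at 4.49, is a ribosomal RNA precursor and stands beside the control values below.

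Signal in data outside the gene comparison was above the vehicle level in 3 kinds of control probe sets. At 24 h the poly-A spikes averaged 8.472 against 3.04 in vehicle, the hybridization spikes 11.70 against 9.96 and the 28S ribosomal RNA probe sets 11.19 against 9.04. The 18S ribosomal RNA probe sets averaged 10.5 against 9.78, within the vehicle SD of 1.69.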

How the results depend on the processing

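Counts of rises between 90 min and 24 h (2889) were 8472 with array weights, whose estimation stopped before it converged, 8062 without 4 h replicate 2, 4724 with every probe set tested on its own, 4382 with the 6 arrays alone and 812 against a fold of 1.5. Leaving out 1 array of either group gave 2374 to 2627 rises and 2751 to 2914 falls. Counts of falls (3107) were 5403 with every probe set and 1110 against a fold of 1.5. The replicate number as a block gave 3009 and 3134, and 141 and 140 switches. A separate check of pairing between 90 min and 24 h arrays did not use the correlations of the levels themselves, which were 0.9777 to 0.9792. In that check same-numbered arrays gave r of 0.039, −0.046 and −0.098, and differently numbered ones gave −0.086 to 0.128. The numbers were therefore not taken as pairs. Switches up then down and down then up (131 each) were 603 and 565 with array weights, 289 and 281 without 4 h replicate 2 among genes with a mean of at least 4 (added after seeing the data), 224 and 209 with 9 arrays, 222 and 204 without 4 h replicate 2, 58 and 52 with array medians subtracted, 1 and 3 against a fold of 1.5, 203 down then up after quantile normalization and 210 up then down with every probe set. Leaving out 1 vehicle, 90 min or 24 h array gave 75 to 126 and 67 to 115. Of the switches up then down, 56 of 58 under subtracted medians were among the 131, as were 51 of 52 the other way. The cause of these changes was not tested.

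Averaging all probe sets per gene reversed ATP6V1H to −0.0466, DUSP1 to 0.0293 and HMGCS1 to −0.274; MPO, at low signal, gave −0.00200 after quantile normalization and −0.0442 with medians subtracted. Of 179 named genes, 41 lost their call against a fold of 1.5 and none under the replicate block. List counts of 4 or fewer often moved by 1 to 4 genes when 1 array was left out. Low signal limits genes under 4.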
